A study of Mus musculus with 26 samples.

Results

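The cells described here carried transcripts of border-associated macrophage (BAM) genes among microglia sorted from mouse cortex at postnatal day (P) 14. A cell counted when its summed unique molecular identifiers (UMIs) of Pf4, F13a1, Ms4a7 and Mrc1 reached at least 6, with at least 2 of the 4 genes detected, after barcodes with fewer than 500 genes or over 20% mitochondrial UMIs were left out. The rule found 122 of the 29899 P14 cells (0.408%), and 2754 of the 67847 cells in all 18 sorted libraries of the series. Cells just outside the rule, with at least 2 of the genes, numbered 16 at 4 UMIs and 13 at 5, and those just inside numbered 8 at 6 UMIs and 8 at 7. The 4 genes chose the cells, so their levels below are a description.

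The study asked whether inflammation of the mother before birth leaves a lasting mark on microglia. Wild-type C57Bl/6N dams were injected at embryonic day E12.5 with saline or with poly(I:C), which imitates viral RNA and provokes maternal immune activation (MIA). Somatosensory cortex of the offspring was dissected without its meninges and dissociated on ice, and live Cd11b+, Cx3cr1+, Cd45low cells were sorted and profiled with droplet 3' RNA sequencing. At P14 there were 4 saline libraries (1 and 2 of mixed sex, 3F female, 3M male) and 2 MIA libraries of mixed sex (1 and 2), and the 3 E15 saline libraries served as the embryonic comparison. The 6 E13 libraries, saline and MIA, and the E15 MIA libraries entered only counts of cells and the comparison of barcodes. The gate selects Cd45low cells with surface Cx3cr1, so macrophages with high Cd45 would mostly be lost, and no count below is a count of these cells in the tissue.

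BAMs live at the surfaces of the brain, in the meninges, choroid plexus and perivascular spaces, and share a yolk sac origin with microglia. They scavenge proteins, lipids and heme products with receptors such as the mannose receptor Mrc1, Cd163 and Stab1, whereas parenchymal microglia are known for P2ry12, Tmem119 and the transcription factor Sall1. Pf4 encodes a platelet-type chemokine, F13a1 the A subunit of coagulation factor XIII, and Ms4a7 a membrane protein of the Ms4a family. In GRCm38 the 4 genes lie at chr5:90772435-90773383 on the plus strand (Pf4), chr13:36867178-37050244 on the minus strand (F13a1), chr19:11321039-11336146 on the minus strand (Ms4a7) and chr2:14229392-14332057 on the plus strand (Mrc1).

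The cells passing the rule were few in every library. Saline 1 held 22 of 5822 cells, saline 2 held 10 of 3809, saline 3F held 27 of 4715 and saline 3M held 29 of 4886. MIA 1 held 24 of 5677 and MIA 2 held 10 of 4990. As shares these were 0.378% (exact 95% binomial interval 0.237% to 0.572%), 0.263% (0.126% to 0.482%), 0.573% (0.378% to 0.832%), 0.594% (0.398% to 0.851%), 0.423% (0.271% to 0.628%) and 0.200% (0.0961% to 0.368%) in that order, and the intervals cover counting error only. Saline 2 and MIA 2 were lowest, and the 2 sex-separated saline libraries were highest. With only barcodes found in no other sorted library the order differed, at 0.107% (0.0393% to 0.233%), 0.267% (0.128% to 0.491%), 0.0683% (0.0141% to 0.199%), 0.154% (0.0617% to 0.316%), 0.148% (0.0637% to 0.291%) and 0.205% (0.0984% to 0.377%), with saline 2 and MIA 2 highest and 3F lowest. The same rule passed 1346 of 13394 E13 cells (10.0%) and 768 of 13680 E15 saline cells (5.61%). E15 cells were deeper, however, with medians of 8482.5 to 11721 UMIs against 3682 to 6787 at P14, and a rule in absolute UMIs passes more easily in a deeper cell. After thinning each cell to 2000 UMIs, with at least 3 UMIs of the rule genes required, 1.35% to 3.47% of E15 saline cells and 0.113% to 0.427% of P14 cells passed by library. Without barcodes found in another sorted library these ranges were 1.20% to 3.44% and 0.0242% to 0.170%.

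**Figure D1:**
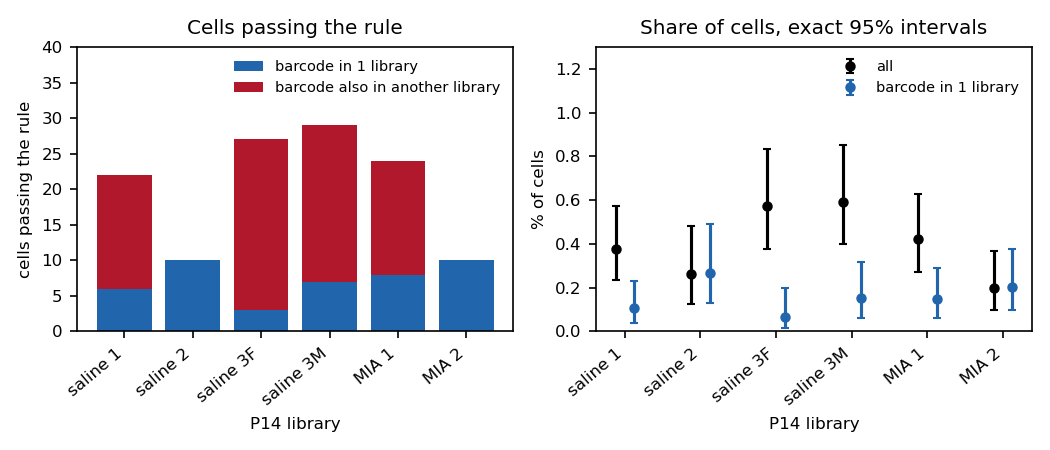
Cells passing the rule in each P14 library, as counts split by whether the barcode also occurs in another sorted library (left) and as a percent of all cells with exact 95% intervals (right). In saline 1, 3F and 3M and MIA 1 most of these cells have a shared barcode (16 of 22, 24 of 27, 22 of 29 and 16 of 24), whereas saline 2 and MIA 2 have none.

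Most of these cells had a barcode that other libraries also held, and this bears on every result. A cell barcode is a short designed sequence on a bead, and it occurs in several libraries either by coincidence or when reads of one cell reach several libraries. Of the 122 cells, 78 (63.9%) shared their barcode with another sorted library, against 1292 of all 29899 P14 cells (4.32%). By library the shared cells numbered 16 in saline 1, 0 in saline 2, 24 in 3F, 22 in 3M, 16 in MIA 1 and 0 in MIA 2, which left 6, 10, 3, 7, 8 and 10 unshared cells, 44 in all. The 78 shared cells held 45 distinct barcodes, of which 14 occurred in both saline 1 and MIA 1 and 19 in both 3F and 3M.

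The partner barcodes were mostly embryonic. For 77 of the 78 shared cells the deepest partner lay in an E13 MIA library (MIA 1 for saline 1 and MIA 1 at P14, MIA 2 for 3F and 3M), and in 78 of 78 the partner had more UMIs (median 36926 against 3933.5). In 77 cases the partner itself passed the rule, and the P14 profile correlated better with its own barcode in the E13 library than with any other cell there. The median correlation across genes was 0.807 with the own barcode and 0.530 with the other barcodes. Within a library the depth was a nearly fixed share of the partner's, with a median of 2.81% in saline 1 (2.35% to 2.91%, 16 cells), 4.25% in MIA 1 (3.56% to 4.46%, 15 cells), 30.5% in 3F (24.4% to 34.7%, 24 cells) and 26.1% in 3M (20.7% to 29.1%, 22 cells). The rule genes followed the same shares, at 3.02%, 4.52%, 31.4% and 25.4% of the partners' UMIs.

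The pattern can be followed cell by cell in 3 of these barcodes, which are printed 5′ to 3′ because each passed the rule in several libraries at once.
barcode 1: ccaatttaggttggac
barcode 2: gcgtttcgtgaggcat
barcode 3: atcacgaagccgatcc
Barcode 1 had 883 UMIs in E13 saline 2, 49213 in E13 MIA 2, 7661 in E15 saline 3, 14606 in E15 MIA 3, 16116 in P14 saline 3F and 13976 in P14 saline 3M. Its rule genes gave 4, 396, 66, 122, 137 and 114 UMIs in the same order. Barcode 2 had 67745 UMIs in E13 MIA 2, 19913 in 3F and 17390 in 3M, with 315, 79 and 69 UMIs of the rule genes. Barcode 3 was unusual in that it had no Mrc1 UMI in any of its 6 libraries. It carried F13a1 instead, at 85 UMIs in E13 MIA 2, 13 in E15 saline 3, 25 in E15 MIA 3, 29 in 3F and 28 in 3M. Its sixth library, E13 saline 2, held 0 UMIs of F13a1.

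**Figure D2:**
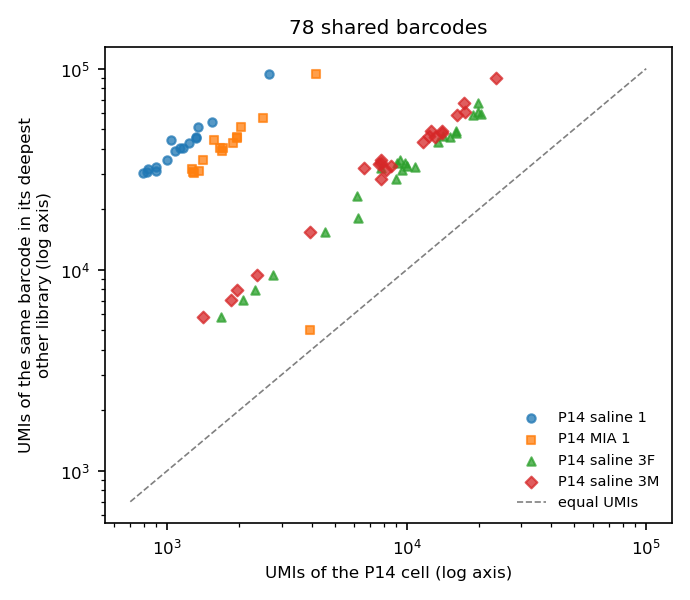
UMIs of each shared P14 cell (horizontal, log axis) and of the same barcode in its deepest other library (vertical, log axis), with a colour and symbol for each P14 library and a dashed line at equal UMIs. All 78 points lie above the line, the P14 cells standing at medians of 2.81% (saline 1), 4.25% (MIA 1), 30.5% (3F) and 26.1% (3M) of the partner for barcodes whose partner is an E13 MIA library.

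A female transcript gave a further check of the labels. Xist, which marks cells with an inactive X chromosome, was detected in 13 of 29 cells passing the rule in the male library 3M, in 0 of its 7 unshared cells and in 2 of its 4553 other unshared cells (0.0439%). In the female library 3F it was detected in 14 of 27, in 3 of 3 unshared cells and in 95.5% of other unshared cells. Xist can check the labels only in 3F and 3M, since saline 1 and MIA 1 are of mixed sex. For 77 of the 78 shared cells the profile matched its own barcode in an E13 MIA library best, so their P14 label is in doubt. The other one, in MIA 1, had its partner in E15 MIA 2, with 78.5% of the partner's UMIs, 12 rule UMIs against 4 in the partner and a microglial share of 8.04%. It was kept among the shared cells, and the main results are given for all 122 cells and for the 44 unshared cells, the latter compared with other unshared cells. How the shared barcodes arose was not tested.

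Most shared cells had a lower share of microglial transcripts than the unshared cells, although the ranges overlapped. The 16 microglial genes checked, among them P2ry12, Tmem119, Sall1 and Cx3cr1, made up a median of 0.901% of UMIs in shared cells (0.146% to 8.04%) and 7.20% in unshared cells (0.757% to 13.2%), beside library medians of 8.97% to 10.8% in the other P14 cells. Of the shared cells 77 of 78 lay below the 5th percentile of the other cells of their library, and of the unshared cells 16 of 44 did. P2ry12 was detected in 45 of 78 shared and 41 of 44 unshared cells, Tmem119 in 29 and 37, and Sall1 in 10 and 23. The mitochondrial share was 4.45% in shared and 1.70% in unshared cells, as medians. The E15 saline cells passing the rule (unshared) also had P2ry12 in 97.5% to 99.1% of cells and medians of 1.81% to 2.54% microglial UMIs, close to the 2.15% to 3.14% of other E15 cells.

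**Figure D3:**
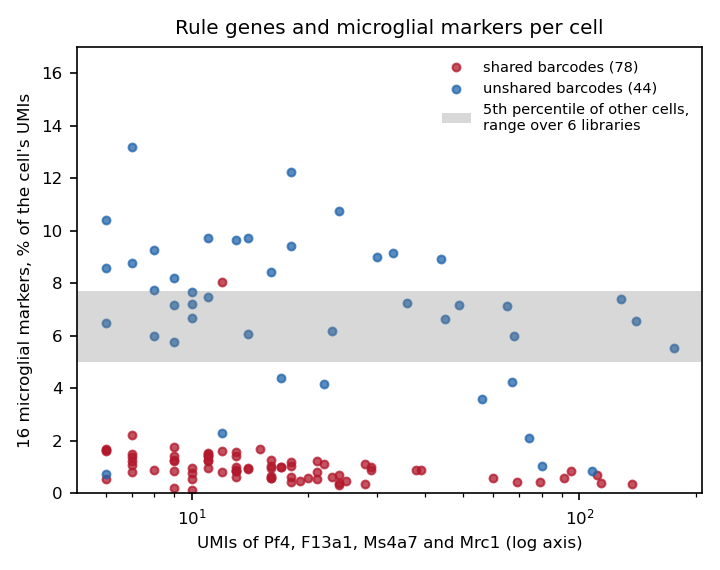
Percent of UMIs from 16 microglial genes (vertical) against UMIs of the 4 rule genes (horizontal, log axis) in each P14 cell passing the rule, with shared barcodes in red, unshared barcodes in blue and a grey band for the range over the 6 libraries of the 5th percentile of the other cells (5.01% to 7.69%). Of the shared cells, with a median of 0.901%, 77 sit below the band and 1 above it at 8.04%, and unshared cells spread from 0.757% to 13.2%, through and above it.

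For the unshared cells the label of BAM held only in part. All 44 had Mrc1, 41 had Pf4, 31 had Ms4a7 and 28 had F13a1, and 21 had all 4. Of the markers outside the rule, Cbr2, a carbonyl reductase of BAMs, was detected in 23, Lyve1, a hyaluronan receptor of perivascular and leptomeningeal macrophages, in 15, the folate receptor Folr2 in 10 and the hemoglobin scavenger receptor Cd163 in 9. In the same cells P2ry12, Tmem119 and Sall1 were mostly present, so 28 of the 44 combined the 4-gene signal with a microglial share at or above the 5th percentile of their neighbours. Of those 28, Cbr2 was detected in 13, Lyve1 in 8 and P2ry12 in 28. Of the 16 below the percentile, Cbr2 was detected in 10, Lyve1 in 7 and P2ry12 in 13, and their median of rule UMIs was 29.5 (6 to 108) against 13.5 (6 to 175). The percentile is a point on a continuous range, with 5 of the 16 and 8 of the 28 cells within 1 percentage point of it. The cells are therefore called here by the rule, and not as a separate cell type.

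The extremes show how mixed the unshared cells were. One cell of MIA 2 had 7610 UMIs, of which 108 were of the rule genes, no P2ry12 UMI and a microglial share of 0.854%. Another of MIA 2 had 80 rule UMIs, 21 of Lyve1, 14 of Folr2 and 11 of Cbr2 with 2 of P2ry12. At the other end, a cell of saline 2 with the highest rule count (175 UMIs, 102 of them Mrc1) had 46 P2ry12 UMIs and a microglial share of 5.55%. One cell of 3M held 33731 of the 76165 unshared UMIs of its library, with 140 rule UMIs, 147 of P2ry12 and 35 of Lyve1. The same cell gave 34 of the 35 Mki67 and 45 of the 46 Top2a UMIs, both genes of dividing cells, that all 44 unshared cells held.

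Droplets holding a pair of cells could also give both sets of transcripts. The doublet caller marked 0 P14 cells with its automatic threshold, and removing the highest-scoring 1545 P14 cells removed 0 of the 122. The same removal took 43 of the 768 E15 saline cells passing the rule. The unshared cells had a median of 6633 UMIs. By library (saline 1, 2, 3F, 3M, MIA 1, MIA 2) their medians were 5090, 7172.5, 6373, 6663, 5977 and 6615. The other unshared cells had medians of 3712, 6797, 5231, 5893, 4701 and 6435, lower in every library. The caller scores cells against simulated pairs from the same library, where cells passing the rule were rare, so it could hardly mark pairs that include one. A rule in absolute UMIs also favours deeper cells, so the difference in depth cannot decide the question either. The part of doublets in the result was therefore not tested. Free RNA was not measured, since no empty droplets were analysed. In the other unshared cells, which are by construction those that the rule did not take, Pf4 had a UMI in 0.176% to 0.646% of cells, F13a1 in 0% to 0.0683% and Ms4a7 in 0% to 0.0803%. Mrc1 was different, with a UMI in 14.9% to 27.9% of other cells.

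Levels of the rule genes are given as CPM, the UMIs of a gene per 1000000 UMIs summed over the cells of a library, in the order saline 1, 2, 3F, 3M, MIA 1 and MIA 2. Unshared cells had Pf4 at 2167, 1764, 558, 709, 2229.7 and 1550.1. Mrc1 was at 2454, 1995, 1713, 1287, 2306 and 2776. F13a1 was at 446, 487, 119.5, 368, 343 and 789. For all 122 cells Pf4 ran from 814 to 3532, and the highest values were in saline 1 and MIA 1, the libraries with shared cells from the same E13 partner. Other cells had Mrc1 at 43.9 to 82.8 and Pf4 at 0.362 to 1.67. Library 3F rests on 3 unshared cells, where 3 UMIs amount to 119.5 CPM, so its values for unshared cells are the coarsest.

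Outside the rule genes, the clearest companions of the signal in unshared cells were Dab2, Apoe, Lyz2, Ednrb and Igf1. Dab2, an endocytic adaptor, was at 765, 706, 279, 236, 400.2 and 761 CPM against 24.8 to 29.2 in other cells, a mean log2 ratio of 3.71 over the 6 libraries (lowest 2.65, highest 4.48). Apoe, the lipid carrier, was at 11631, 23112, 9919, 12210.3, 6136 and 23633 against 1355 to 1695, a mean log2 ratio of 3.12 (1.94 to 3.86). Lyz2, the macrophage lysozyme, was at 574, 1496, 79.7, 525, 305 and 1015 against 41.2 to 60.6, with a mean log2 ratio of 3.00 that ran from 0.57 in 3F to 4.41. In each of the 3 genes all 6 libraries were above the other cells, and saline 2 and MIA 2 were among the highest. The endothelin receptor gene Ednrb (2.71), the growth factor gene Igf1 (2.63), the scavenger receptor gene Stab1 (2.13), the myosin gene Myo5a (2.13) and Ms4a6c (2.06) followed, and then Hmox1 (1.78), which breaks down heme, Aldh2 (1.75) and Bst2 (1.75). Log2 ratios here have 10 CPM added to both classes, which understates low genes.

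With all 122 cells the leading genes changed. After Pf4 (7.25), F13a1 (6.02) and Ms4a7 (5.51) came Lgals1 (4.79), Mrc1 (4.69), Lyve1 (4.57), Dab2 (4.45) and the interferon-induced Ifitm2 (4.10), Ifi27l2a (4.09) and Ifitm3 (3.68). Lgals1, which encodes galectin-1, was at 1420.5, 1069, 892 and 1419.8 CPM in the shared cells of saline 1, 3F, 3M and MIA 1, and at 159, 0, 158 and 76.2 in the unshared cells of those libraries. Ifi27l2a was at 2999, 591, 618 and 2903 in the shared and 159, 0, 26.3 and 19.1 in the unshared cells. For both genes every shared value lay above every unshared one in these libraries. Saline 2 and MIA 2, which had no shared cells, were also above the other cells in both genes. With all 122 cells the lowest log2 ratio of the 6 libraries was 3.67 for Lgals1 and 2.66 for Ifi27l2a. Of the 15 genes with the highest ratios in each version, 6 were the same, namely the 4 rule genes, which chose the cells, and Dab2 and Lyz2.

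**Figure D4:**
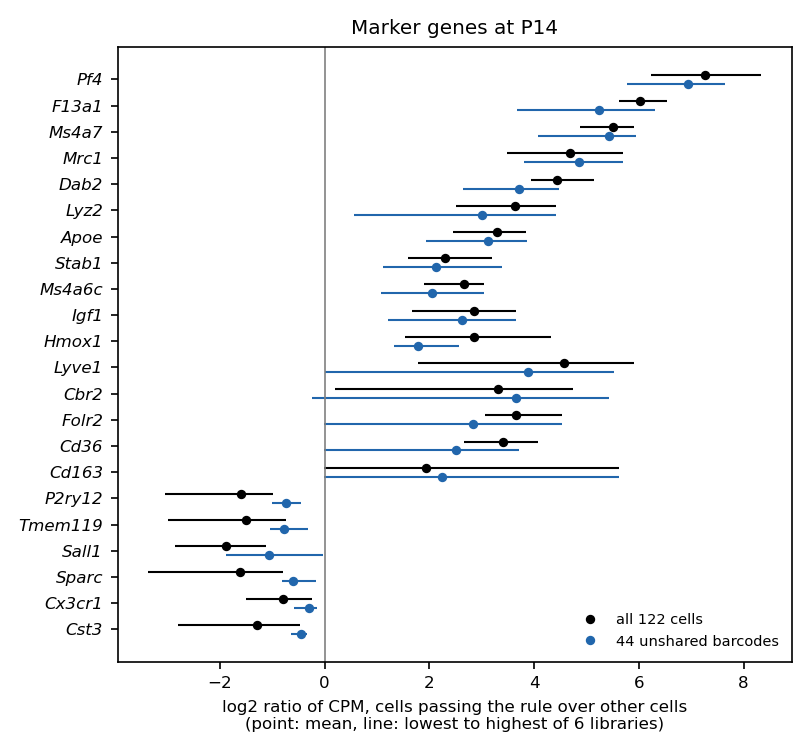
Log2 ratio of CPM in cells passing the rule over other P14 cells, with 10 CPM added, for BAM, microglial and other named genes, for all 122 cells and for unshared cells (point, mean of the 6 libraries; line, lowest to highest). Dab2 and Apoe lie at 3.71 and 3.12 in unshared cells, and P2ry12 and Tmem119 lie at -0.74 and -0.77, nearer 0 than with all cells (-1.60 and -1.50).

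Marker lists put these genes in context, as a description without a test. Of 1931 genes with a level outside the rule genes, 91 (4.71%) were higher than in other cells in all 6 libraries for unshared cells, and 154 (7.98%) were lower in all 6. Of the 1931, 25 (1.29%) were higher in all 6 with a mean of at least 2-fold. Another 20 (1.04%) were lower in all 6 with a mean of at least 2-fold. Of the 20 BAM markers outside the rule, 11 had a level and 6 were higher in all 6 libraries, with a median log2 ratio of 2.25 beside -0.09 for all genes. Of 7 heme and iron genes with a level, 5 were higher in all 6 (median 0.86), among them the ferritin light chain gene Ftl1 at 2311 to 4171 against 1546 to 1891 CPM. The iron exporter gene Slc40a1 was also higher in all 6, at 191 to 478 against 142 to 183. Of the 16 microglial genes 0 were higher and 11 were lower in all 6 (median -0.51). P2ry12, the purinergic receptor of resting microglia, was at 3155, 3017, 4342, 4241, 4249.7 and 3185 against 5830.5 to 6385, so all 6 libraries were lower, although each kept a high level.

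For all 122 cells, 264 of 1991 genes (13.3%) were higher and 391 (19.6%) lower in all 6 libraries. With a mean of at least 2-fold as well, 84 (4.22%) were higher and 121 (6.08%) lower in all 6. The BAM markers had 12 of 13 higher (median 3.30), the microglial genes had 15 of 16 lower (median -1.26), and 6 of 7 interferon-response genes were higher (median 3.30). In unshared cells 1 of 4 interferon-response genes with a level was higher in all 6 libraries, and their median was 2.07. That gene, Bst2, which encodes tetherin, was at 542, 937, 199, 420.1, 248 and 395 against 100.1 to 121 CPM. Genes at the low end in unshared cells were the noncoding RNA Meg3 (-2.09), the antiproliferative Btg2 (-1.94), Smad7, an inhibitor of TGF-beta signalling (-1.87), Ccng2 (-1.53) and Arhgef40 (-1.53). Smad7 was at 0, 97.3, 79.7, 158, 95.3 and 0 CPM against 158 to 200.3, where 3 UMIs amount to 36.5 to 119.5.

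Markers of other blood cell types were counted in the same way. Of the 12 monocyte and 10 lymphocyte markers 0 had a level in unshared cells, of 8 neutrophil markers 1 had one (Csf3r) and of 10 dendritic cell markers 2 had one, of which Bst2 was higher and Siglech, also a microglial gene, lower in all 6 libraries (median 0.66). Of the monocyte markers, Ly6c2, Plac8, Chil3, Fn1 and Ace had no UMI in unshared cells. The neutrophil genes S100a8, S100a9, Retnlg and Ly6g and the lymphocyte genes Cd3e, Cd79a, Ms4a1 and Nkg7 had none either. As a sum the monocyte list made up 0% to 0.00398% of UMIs in unshared cells and 0.00164% to 0.00203% in other cells. The neutrophil list made up 0.00319% to 0.0199% and 0.0116% to 0.0133%, the lymphocyte list 0.00637% to 0.0141% and 0.00642% to 0.00790%, and the dendritic cell list 0.116% to 0.209% and 0.153% to 0.166%. Of the class II antigen presentation genes, H2-Aa and H2-Eb1 were detected in 0 of 122 cells, H2-Ab1 in 2 and Cd74 in 15. Others of that list of 10 were detected, with the protease gene Ctss at 4779.8 to 6493 CPM and the peptide loader gene H2-DMa at 95.3 to 478 CPM in unshared cells. Other P14 cells had Cd74 at 7.54 to 16.2 CPM.

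The unshared cells of the 6 libraries did not all look alike. Lyve1 was at 446, 24.3, 0, 459.5, 324 and 409 CPM, and 35 of the 35 Lyve1 UMIs of 3M were from 1 cell. Cbr2 was at 509.8, 243, 0, 52.5, 419 and 296, and Cd163 at 0, 0, 159, 0, 133 and 479. Cells with a Cd163 UMI numbered 0, 0, 1, 0, 3 and 5, so 8 of the 9 were in the MIA libraries. That split was seen in the values and was not tested. Across genes the members' sums of 3F and 3M correlated at 0.971 with all cells and at 0.819 with unshared cells.

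MIA was compared with saline over the 6 P14 libraries. In saline libraries the share of cells passing the rule was 0.452% ± 0.159 (SD, n = 4), in MIA libraries it was 0.312% ± 0.157 (SD, n = 2), and the difference of -0.140 percentage points was within the spread (two-sided exact permutation test, p = 0.333, smallest possible 0.0667). For unshared cells the share was 0.149% ± 0.0861 (SD) in saline and 0.176% ± 0.0407 (SD) in MIA libraries, a difference of 0.0274 in the opposite direction (exact permutation p = 0.8). That sign turned without MIA 2 (-0.00138) and with a replicate block (-0.0106), and with all cells the block gave -0.00863 and a rule of at least 10 UMIs of 3 genes -0.0142. The labels give mixed sex for saline 1 and 2 and both MIA libraries, whereas the study's text also speaks of single mice, so how many animals a library holds is not settled here. 3F and 3M carry the same replicate number, and summed into 1 library they gave a difference of -0.0963 with all cells (exact permutation p = 0.5). No label ties animals to litters, so p-values measure the spread between libraries, which may be partly technical. The design cannot reach p below 0.0667, and a difference of either sign was not detectable here.

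No gene differed by treatment after adjustment. edgeR's quasi-likelihood test with Benjamini-Hochberg adjustment called 0 of 1747 genes in all cells (0.0%), with 66 at an unadjusted p under 0.05, and DESeq2 called 0, with 31. In unshared cells edgeR called 0 of 1255 (0.0%), with 62 at an unadjusted p under 0.05, and DESeq2 called 0, with 18. Leaving out 1 library changed this for a few genes, with 5 called in all cells without saline 2 and 1 without MIA 1. In unshared cells 4 were called without saline 1, 3 without MIA 1, 1 without saline 2 and 1 without MIA 2. Leaving out a MIA library leaves 1 MIA sample, which is then assumed to vary like the saline libraries. In simulated data of the same size, 89.5% of 4-fold and 1% of 2-fold changes were recovered with all cells. With unshared cells 93.5% and 17% were recovered, so a 2-fold change would mostly be missed. The simulated libraries were independent, whereas with all cells 14 barcodes stood in both saline 1 and MIA 1 and 19 in both 3F and 3M. The recovery with all cells may therefore not hold for the real sums.

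The genes named here were among those with the smallest p-values, and none passed. Tpd52, of the tumor protein D52 family, was at 258, 122, 349 and 265 CPM in all cells after saline and at 71.3 and 42.3 after MIA, a log2 difference of -2.15 ± 0.53 (SE; edgeR adjusted p = 0.869). The annexin gene Anxa5 was at 179, 134, 221 and 163 after saline and at 59.4 and 28.2 after MIA, a log2 difference of -1.98 ± 0.50 (edgeR adjusted p = 0.869). For both genes the 2 groups did not overlap. Both were named for small p-values, and the share of all genes tested without overlap is not given, so this is a description. In all cells each UMI amounted to 11.9 CPM in MIA 1 and 14.1 CPM in MIA 2. The values after MIA therefore rest on few UMIs. Pik3r1 was at a log2 difference of 1.27 (edgeR adjusted p = 0.869). In unshared cells Rps28, a ribosomal protein gene, was at 1689, 1387, 916 and 1077 after saline and at 1868 and 3171 after MIA, also with no overlap, a log2 difference of 0.99 ± 0.26 (edgeR adjusted p = 0.54). The G-protein regulator Rgs2 was at -1.30 and the phosphatase Dusp6 at -1.17 in unshared cells (edgeR adjusted p = 0.907 for both).

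Genes that the study called in all P14 microglia were looked at separately, and since that list was chosen on these libraries it is no independent evidence. Of 21 genes, 12 were tested in all cells and 11 in unshared cells, and none passed. The medians of the log2 differences were 0.40 and 0.04, beside 0.00 and -0.03 for all genes tested. Zfp36l1, an mRNA decay factor, was at 382, 414, 478 and 486 CPM after saline and at 686 and 747 after MIA in unshared cells. The groups did not overlap, but the share of all genes tested without overlap is not given. The log2 difference of Zfp36l1, 0.69 ± 0.30, had an edgeR adjusted p = 0.907. Slc15a3, a lysosomal peptide transporter, was at 223, 280, 478 and 131 after saline and at 38.1 and 127 after MIA (-1.51 ± 0.56, edgeR adjusted p = 0.907). Hes1 had 0 UMIs in the cells passing the rule. BAM markers had a median of 0.30 with all cells (13 tested) and 0.15 with unshared cells (10 tested), microglial genes 0.58 and -0.11, and none passed the test.

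Whether MIA acted differently in these cells than in the other cells was tested as an interaction. edgeR called 5 of 12633 genes with all cells (0.0396%), 2 higher (0.0158%) and 3 lower (0.0237%), and 0 of 12280 with unshared cells (0.0%), where 336 had an unadjusted p under 0.05. DESeq2 called 0 in both (139 at an unadjusted p under 0.05 with unshared cells), and limma on each library's log2 ratio called 0 of 1747 and 0 of 1255. In simulated data with all cells edgeR recovered 15% of 4-fold changes, DESeq2 10.5% and limma, of those it tested, 71.4%. With unshared cells they recovered 10%, 6.5% and 0%. In the sums of all cells 14 barcodes stood in both saline 1 and MIA 1 and 19 in both 3F and 3M. These libraries were thus not independent, as the simulated ones were. The count of 5 was 0 with 3F and 3M summed, which carry the same replicate number. It was also 0 without 3F or without 3M, and 30 without saline 2. Ccl4, a chemokine, was among the 5 with a log2 difference of 4.29 ± 0.78 (edgeR adjusted p = 0.000163), from 59.5, 0, 0 and 0 CPM after saline and 273 and 0 after MIA. The value thus rested on MIA 1, and without that library it was -9.90. Vcam1, an adhesion molecule, was called at 5.61 ± 1.26 (edgeR adjusted p = 0.0227) and was at 338 CPM in MIA 2 and at most 11.9 elsewhere.

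Subsets among the cells were compared after each cell was thinned to 2000 UMIs, which left out 16 of the 22 cells of saline 1, 12 of the 24 of MIA 1 and 1 to 3 of each other library. Lyve1 was then detected in 26.3% ± 28.4 (SD, n = 4) of cells in saline libraries and in 43.1% ± 1.96 (SD, n = 2) in MIA libraries, a difference of 16.8 points (exact permutation p = 0.4). Unthinned, it was detected in 12 of 22, 1 of 10, 7 of 27 and 8 of 29 cells after saline and in 16 of 24 and 4 of 10 after MIA. The difference was 8.81 points at 1000 UMIs, 8.01 without saline 2 and 30.2 without saline 1. For unshared cells the saline mean was 13.6% and the MIA mean 41.0%, a difference of 27.4 points (exact permutation p = 0.2). By library the unshared shares were 2 of 5, 0 of 9, 0 of 3 and 1 of 7 after saline and 3 of 8 and 4 of 9 after MIA, so the groups overlapped at saline 1. The saline mean for Mki67 or Top2a was 17.6% and the MIA mean 13.9% (exact permutation p = 0.933), and for unshared cells they were 7.14% and 5.56% (exact permutation p = 1). For the class II genes H2-Aa, H2-Ab1, H2-Eb1 or Cd74 the saline mean was 5.66% and the MIA mean 16.7% (exact permutation p = 0.533), and in MIA 1 they were detected in no cell. For unshared cells these means were 2.78% and 16.7% (exact permutation p = 0.333). In other P14 cells the thinned Lyve1 share was at most 0.0430%.

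Age was compared in the unshared cells first, since the profiles of shared cells correlated best with their own barcodes in E13 libraries. The comparison set the 26 unshared P14 saline cells in 4 libraries against 743 unshared E15 saline cells in 3 libraries, selected by the same rule. E15 sums held 1123869 to 8595999 UMIs and P14 sums 25103 to 82207, and age, litter and sequencing run cannot be told apart. The rule genes themselves were at other levels, with Pf4 at 181 to 633 CPM at E15 and 558 to 2167 at P14. The unshared cells passing the rule were deeper at E15, with library medians of 9249 to 17654 UMIs against 5090 to 7172.5 at P14. A rule in absolute UMIs thus asks for a higher CPM at P14. No fit of age or of its interaction used cells chosen at matched depth, so the part of the rule in these differences was not tested. edgeR called 412 of 1441 genes (28.6%), of which 190 rose (13.2%) and 222 fell (15.4%), and DESeq2 called 425. With 1 library left out fewer genes rose, at 123, 108 and 145 without E15 saline 1, 2 and 3 and at 118, 97, 131 and 108 without P14 saline 1, 2, 3F and 3M, and 196 to 247 fell. Without a P14 library 6334 to 6441 genes passed the filter. With all cells edgeR called 16 of 4567 (0.35%), 13 higher (0.285%) and 3 lower (0.0657%), (6 without 3M and 27 without 3F). Only 3 of these 16 were also tested in unshared cells, and 2 of the 3, Adgrg1 and Lrba, were called in both.

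Microglial genes rose with age in the unshared cells. Of 16 tested, 13 rose and 0 fell, with a median log2 change of 1.29 beside -0.01 for all genes tested. P2ry12 was at 804, 921 and 1145 CPM in the E15 libraries and at 3155, 3017, 4342 and 4241 in the P14 saline libraries 1, 2, 3F and 3M, a log2 change of 1.79 ± 0.19 (edgeR adjusted p = 4e-06). Tmem119 went from 201, 220 and 267 to 733, 729.9, 717 and 985 (1.66 ± 0.23, edgeR adjusted p = 3.47e-05). Sparc, a matricellular protein of mature microglia, went from 537, 651 and 892 to 5226, 3455, 7250 and 5593 (2.79 ± 0.24, edgeR adjusted p = 4.49e-07). In none of the 3 did the ages overlap, though the share of all genes tested without overlap is not given. The other unshared cells rose as well, P2ry12 from 1555 to 2155 up to 5830.5 to 6265. Sall1 rose by 1.23 with overlapping libraries, and with shared barcodes included 0 of 16 microglial genes passed (median 0.39).

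Other genes that rose are named for their small p-values or from lists, beside 13.2% of all genes called higher and 15.4% lower. Cst3, the protease inhibitor cystatin C, went from 5926, 7596 and 8316 to 46077, 40094, 35812 and 35305 CPM (2.28 ± 0.17, edgeR adjusted p = 7.5e-08). Selplg, a selectin ligand, rose by 2.93, the adhesion receptor gene Adgrg1 by 4.26, Lag3 by 3.77, Nav3 by 4.75 and Lrba by 4.88, with no overlap between ages. Among 7 complement genes 4 rose and 1 fell, with C1qa at 4643, 5846 and 6013 and then 10006, 9500, 9999 and 9768 CPM (0.68 ± 0.15). C3ar1, the C3a receptor gene, was the one that fell (-0.81, overlapping). Of 10 transcription factors 3 rose, among them Mef2a and Sall1. The inhibitory receptor gene Fcgr2b rose by 2.43, from 32.2 to 42.4 CPM up to 79.7 to 280. Fcgr2b passed the filter on low counts only through the P14 libraries, as a gene could pass through either age alone. Adgrg1, Lag3, Nav3 and Lrba, with larger rises, may also have passed only through P14. Their calls and their lack of overlap are therefore a description. Of class I and class II genes tested, 2 of 4 and 2 of 2 rose, among them H2-DMa (1.33).

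Genes that fell, beside 15.4% of all genes, included several of ribosomal proteins, which were named for their small p-values since no ribosomal list was fixed. Rps19 went from 2122, 2510 and 2754 to 637, 547, 598 and 735 CPM (-2.11 ± 0.19, edgeR adjusted p = 7.87e-07), and Rpl32, Rps12, Rpl28, Rps27a, Rps16, Rpl10a and Rpsa fell by 1.47 to 1.76 on the log2 scale. Of 6 heme and iron genes 3 fell and 0 rose (median -0.63). Ftl1 went from 11120, 9003 and 9797 to 3633, 4099, 2828 and 2311 (-1.78 ± 0.19, edgeR adjusted p = 4e-06), with no overlap. Hmox1 went from 337, 388 and 342 to 191, 134, 79.7 and 105 (-1.64 ± 0.30, edgeR adjusted p = 0.000562), with no overlap. In the other unshared cells Hmox1 went from 298 to 372 down to 23.8 to 25.7. Of 9 lipid genes 3 fell, namely Plin2, which coats lipid droplets (-2.44), the fatty acid binder Fabp5 (-2.62) and Apoe. Apoe went from 15925, 28071 and 28924 to 11631, 23112, 9919 and 12210.3 (-0.91 ± 0.26, edgeR adjusted p = 0.0142), and the ages overlapped. Apoe was the 1 of 8 BAM markers outside the rule that passed, and the list's median was 0.19.

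**Figure D5:**
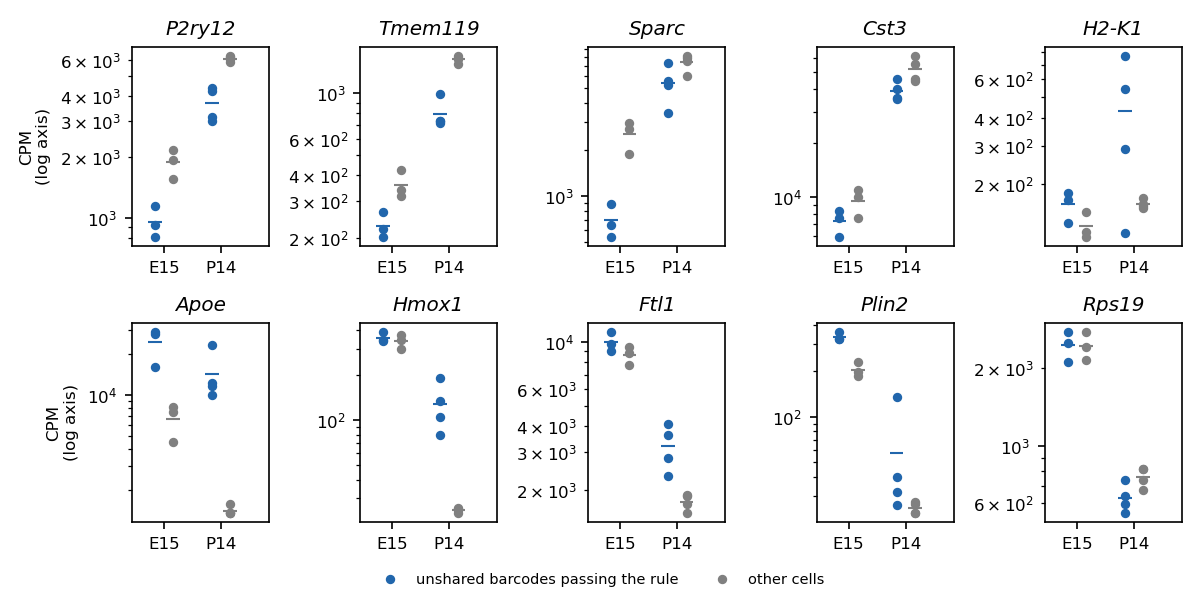
CPM (vertical, log axis) at E15 and P14 (horizontal) of 10 genes, 1 panel each, with a point for each saline library (3 at E15, 4 at P14) and a bar at the mean, blue for unshared cells passing the rule and grey for other unshared cells. In the blue cells P2ry12, Tmem119, Sparc and Cst3 stood higher at P14 and Ftl1, Hmox1, Plin2 and Rps19 lower with no overlap between ages, whereas the ages overlapped for Apoe and H2-K1.

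With shared barcodes included, the cells of the 4 P14 saline libraries gave other calls. In saline 1, 3F and 3M most of these cells had a shared barcode. Of the E15 saline 3 cells passing the rule, 15 had a barcode also found in 3F and 15 one found in 3M. The comparison with all cells is therefore not one of ages alone. The 13 genes called higher at P14 (0.285% of all genes tested) included 4 of 10 interferon-response genes (median 1.80), and 3 were lower (0.0657%). Ifi27l2a was at 202, 89.4 and 122 CPM at E15 and at 1230.4, 341, 538 and 465 at P14 (2.02 ± 0.40, edgeR adjusted p = 0.0451). Cd36, a lipid scavenger receptor gene, went from 19.9, 16.7 and 12.4 to 139, 122, 57.1 and 54.3 (2.03 ± 0.36, edgeR adjusted p = 0.0213). The E15 levels of Cd36 were too low for the filter on low counts, so it was tested only because its P14 levels were higher. In unshared cells Ifi27l2a was at 159, 341, 0 and 26.3 at P14 and did not pass. The other interferon-response genes called, Ifitm3, Isg15 and Oasl2, did not pass the filter on low counts there, so they were not tested.

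Whether age changed these cells differently from the others depended on the test. For unshared cells edgeR called 278 of 13153 genes (2.11%), 155 higher (1.18%) and 123 lower (0.935%), and DESeq2 called 255, of which 250 were higher and 5 lower. In simulated data of this size with 200 genes changed 4-fold, DESeq2 found 30% of them and made 64 false calls, and edgeR made 9. limma on each library's log2 ratio, which takes the spread between libraries, called 0 of 1441 (0.0%), with 93 at an unadjusted p under 0.05. With unshared cells the edgeR fit of this model took the spread of each gene wholly from the other genes, and it gave small p-values also where libraries overlapped. With all cells the counts were 2111 of 13275 (15.9%), 1310 higher (9.87%) and 801 lower (6.03%), by edgeR, 1230 by DESeq2 (981 higher, 249 lower) and 64 of 4567 (1.4%) by limma. The median over all genes was -0.14 by edgeR and 0.20 by DESeq2 with all cells and -0.39 and 0.25 with unshared cells, so directions are relative to those shifts.

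The values behind the named genes show which differences rested on few libraries. Lyz2 was at 431, 375 and 659 CPM at E15 and 574, 1496, 79.7 and 525 at P14 in unshared cells, and in the other cells it went from 503, 596 and 510 to 47.7, 60.6, 50.4 and 41.2. The difference was 3.90 ± 0.18 by edgeR, and by limma it was not called (limma adjusted p = 0.393). Apoe gave 1.12 by edgeR and 1.39 by limma (limma adjusted p = 0.226), and the other cells went from 4521, 7441 and 8108 to 1355, 1581, 1357 and 1357. For both genes the other cells fell without overlap, and in the cells passing the rule the ages overlapped. Cbr2 was at 8.84, 13.1 and 11.6 at E15 and 509.8, 243, 0 and 52.5 at P14 (4.52 by edgeR), a difference that 3F did not share. Top2a and Mki67 were called at 3.64 and 3.53, and without 3M, whose 1 large cell held nearly all their UMIs, they were -10.6 and -10.0. Without saline 2, Ifitm3 went from 4.23 to 1.74 (edgeR adjusted p = 0.245).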

How the data were processed

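Live cells of the microglial gate were sorted and sequenced by the authors with the 10x Genomics 3' kit. Per the file headers the deposited values are raw UMI counts per gene and barcode (31053 genes) made with Cell Ranger 3.1.0 (on mm10, per the study's methods), for 3962 to 5958 barcodes per P14 library. The study's methods name a later version of that software. Its filter was applied (500 genes or more, mitochondrial UMIs of 20% or less), which left 3809 to 5822 cells per P14 library.

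UMIs of the cells passing the rule and of the other cells were summed per library. Sums were compared with edgeR 4.0.16 (TMM, filterByExpr, quasi-likelihood test, R 4.3.3) at a Benjamini-Hochberg adjusted p of 0.05 over all genes tested. DESeq2 1.42.0 and limma 3.58.1 were alternatives. Interactions used 2 sums per library with the library as a term. The 4 rule genes were kept in the fits and the adjustment, and were left out of the counts of genes tested and called. Shares were compared with two-sided exact permutation tests over the 6 libraries (scipy 1.17.1). Levels are CPM, with 10 CPM added before log2 ratios. A gene had a level where its mean reached 100 CPM in the cells passing the rule or in the other cells. Genes were named from lists, from the 15 highest and 10 lowest ratios, and from the 10 smallest p-values per direction among called genes, or the 10 smallest in all where fewer passed. Overlap between groups or ages is described for named genes only, without its share among all genes tested. The cells and lists were chosen with earlier results of these data known. The setting without shared barcodes was added after the data were examined.

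Some genes are not reported here. Groups follow the labels. The replicate numbers were not taken to pair the libraries, since the labels do not say that they do and only 2 pairs of a saline and a MIA library exist, with correlations of deviations of 0.0148 and 0.333 for the 2 pairs in all cells and -0.0466 and 0.117 in unshared cells. Scripts were tested on simulated counts. Doublets were scored with Scrublet (scanpy 1.11.5).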

Additional observations from a re-analysis of the deposited data

Results flagged for a closer look

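In 4 of 54 groups of the 4 P14 saline libraries examined, with all or with unshared barcodes, 1 library lay far from the other three by Dixon's ratio. The cut marks about 1 in 20 groups of independent normal values. These values were not of that kind, since some rest on few UMIs and the same libraries recur. The rate by chance in such data was not measured. All 4 were found with all barcodes. The high library was saline 1 for the chemokine gene Ccl3 (59.5 CPM, 3 UMIs). It was saline 2 for the interferon-inducible genes Ifi203 (146 CPM) and Mndal (219 CPM) and for the aminopeptidase gene Rnpep (170 CPM). Of the 22 cells of saline 1, 16 had a shared barcode, and saline 2 had none.

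Both interaction tests gave calls, that is, genes whose effect differed by edgeR between the cells passing the rule and the other cells. For MIA edgeR called 5 genes with all barcodes. For age edgeR called 2111 genes with all barcodes and 278 with unshared barcodes. limma on the ratios of each library called 0 of 1747, 64 of 4567 and 0 of 1441 in the same order. It tested fewer genes than edgeR (12633, 13275 and 13153), so its counts do not cover every gene that edgeR called. Other values of these tests stand with the comparisons above.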

How the results depend on the processing

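The count of cells passing the rule was 44 without shared barcodes and 78 with at least 10 UMIs of at least 3 genes, the latter by coincidence also the number of shared cells. The genes higher in all 6 libraries with a mean of at least 2-fold fell in number from 84 to 25 without shared barcodes.

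The difference in share was -0.140 points and 0.0274 without shared barcodes. With all cells it was -0.00863 with a replicate block, -0.0142 with at least 10 UMIs and 3 genes, -0.0771 after thinning, and -0.251 (without MIA 1) to -0.0289 (without MIA 2) with 1 library left out. For unshared cells it ran from -0.00138 (without MIA 2) to 0.0668 (without saline 2), and with a replicate block it was -0.0106. Over the whole class II list the thinned share of cells differed by 1.60 points. It was -4.13 at 1000 UMIs, 0 without shared barcodes and -2.56 (without MIA 2) to 5.77 (without MIA 1) with 1 library left out. The cell cycle list differed by -0.85 points, 2.88 without shared barcodes, and -6.41 (without MIA 1) to 4.70 (without MIA 2). The 4 class II genes ran from -5.66 (without MIA 2) to 27.7 (without MIA 1).

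Counts of called genes moved as follows. For MIA against saline, 20 were called with no filter on low counts, 0 to 5 with 1 library left out, and 0 to 4 in unshared cells. The MIA interaction gave 3 with at least 10 UMIs and 3 genes, 0 with 3F and 3M summed, 0 with DESeq2, 0 with limma, 0 without shared barcodes, 0 to 30 with 1 library left out and 0 to 1 in unshared cells. Age gave 10 with doublets removed, 28 with DESeq2, 106 with no filter, 412 without shared barcodes and 6 to 27 with 1 library left out. The age interaction gave 1347 with at least 10 UMIs and 3 genes, 1230 with DESeq2, 278 without shared barcodes, 64 with limma and 950 to 3089 with 1 library left out. In unshared cells it gave 0 with limma and 160 to 300 with 1 library left out. The cause of these moves was not tested, beyond the fewer genes or cells that a setting leaves.

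The values of some single genes changed sign. Ccl4 in the MIA interaction was -0.464 with at least 10 UMIs and 3 genes, and -9.90 to 13.1 with 1 library left out. In unshared cells Stmn1 ran from -3.05 to 0.500 and Ptn from -10.8 to 4.70. In the age interaction of unshared cells Top2a ran from -10.6 to 4.07, Stmn1 from -0.796 to 3.06 and Mki67 from -10.0 to 3.92, with the low end without 3M in each. In the age comparison of unshared cells, the 20 genes with the smallest p-values, 10 per direction, kept direction and call in 160 of 160 alternative values. With all cells the genes chosen in this way kept both in 137 of 172, the other 35 no longer passing. These genes were chosen by the same fit and those named from lists were not counted, so other genes may be less stable.

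A replicate block changed no call for MIA (0 genes, in all and in unshared cells) and gave 27 for age with all cells. Only 2 pairs of a saline and a MIA library share a number, and saline 3F and 3M share one within saline. P14 saline 1 and MIA 1 had 126 barcodes in common and saline 2 and MIA 2 had 28, against 5 and 6 for the crossed pairs.

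The limits are few cells and shallow sums: 3 unshared cells in 3F, and 2 MIA libraries. In simulated unshared data 55.5% of 2-fold and 99% of 4-fold age changes were recovered by edgeR. In the age interaction of unshared cells 43% of 4-fold changes were. Age, litter and sequencing run cannot be told apart, and sequencing batch, a covariate of the study, is not in the labels.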

Other observations

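Other groups of genes in the 44 unshared cells are given as values. Of 5 Fc receptor genes with a level, 3 were higher than in other P14 cells in all 6 libraries (median log2 ratio 0.26), beside 4.71% of all genes. Of 19 lysosome genes 5 were higher and 1 was lower (median 0.18). Of 8 genes of the TGF-beta pathway, which maintains microglial identity, 0 were higher and 3 were lower in all 6 (median -0.40), beside 7.98% of all genes. Of 11 cytokine and pathogen receptor genes 0 were higher and 2 were lower (median -0.23).

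In the age comparison of unshared cells, 3 of 8 cytokine and pathogen receptor genes tested rose, among them Ifngr1 and Il6ra, and 0 fell, with a median log2 change of 0.73. Of 19 lysosome genes 3 rose, among them Cd68 and Laptm5, and the protease gene Ctsb fell (median 0.17). Of 6 cell cycle genes 2 fell, H2afz and Tubb5 (median -0.89), and 0 rose. edgeR called 13.2% of all genes higher and 15.4% lower in that comparison.

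Markers of other brain cells made up small shares of UMIs, although the endothelial range reached above that of other cells. The summed neuronal markers made up 0.00131% to 0.00852% of UMIs in the unshared cells of saline libraries and 0.0134% to 0.0431% in other cells. Astrocyte markers made up 0.00398% to 0.0127% and 0.0174% to 0.0328%. Endothelial markers made up 0.0584% to 0.108% and 0.0603% to 0.0653%. Markers of mural cells and fibroblasts made up 0% to 0.0240% in the MIA libraries and at most 0.00365% in the saline libraries.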
